A study of Mus musculus with 12 samples.

Results

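The genes followed here were Trp53, which encodes p53, and 9 genes that p53 induces or that hold the cell cycle, namely Mdm2, Cdkn1a, Gadd45a, Ccng1, Plk2, Phlda3, Trp53inp1, Cdkn1b and Cdkn2b. They were taken by name from a table of read counts from mouse kidney, 10 genes of 55487 in all. The rule uses no measured value, but the genes were chosen with earlier results of these data known. All 10 passed the filter on low counts in every comparison. The table held 12 libraries of kidney tissue, each called a kidney below, in 4 groups of 3. The labels do not say whether each came from a separate mouse. Con kidneys carried floxed alleles of Gfer (ALR flox/flox), the gene for augmenter of liver regeneration (ALR), without Cre and without ischemia–reperfusion (I/R). KO kidneys carried the same floxed alleles with Ggt1-Cre, which is meant to delete Gfer in the proximal tubule and to spare the other cells of the kidney. Con-IR and KO-IR kidneys came from mice of the same genotypes in which the blood flow of both kidneys had been stopped for 22 min and restored for 24 h. The mice were 6 to 8 weeks old on a C57BL/6 background. The sample labels name the tissue as kidney cortex and call the knockout a knockdown and the controls wild type.

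The p53 protein is a transcription factor that is degraded at rest and accumulates when DNA is damaged, when oxygen radicals build up or when ribosome assembly fails. It switches on genes that arrest the cell cycle, genes that repair DNA and genes that lead to cell death, together with Mdm2, whose product marks p53 for degradation and so closes a feedback loop. Its control is mainly on the protein, so that Trp53 mRNA is not a measure of p53 activity. Among the arrest genes, Cdkn1a encodes p21, which blocks the kinases that drive cells into and through S phase. Injured proximal tubule cells re-enter the cell cycle to replace lost neighbours, and p21 is well known in the kidney as a brake on that step. Cdkn1b (p27) and Cdkn2b (p15) are also inhibitors of cell cycle kinases, and respond to mitogen withdrawal and to TGF-β rather than chiefly to p53.

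Library totals lay between 12165089 and 23123693 counts. Xist counts showed Con libraries 1 and 2 to be from females (22402 and 19755 counts, with 0 from Y-linked genes) and the other 10 from males, so that every comparison with Con mixed sexes, whereas those among the other groups were between males. A fit with sex as a term sets the other groups against Con library 3 alone, and is given wherever it changed a call of the 10 genes or a call printed for another gene. Gfer, the targeted gene, lay between 11.4 and 14.4 CPM (the count scaled to a library size of 1000000) in Con and between 9.97 and 17.1 in KO, and between 15.3 and 20.0 in Con-IR and between 21.6 and 22.8 in KO-IR. Its transcript was not measurably lower in the libraries labelled knockout (log2 difference 0.13, SE 0.20, adjusted p = 0.761 without I/R, and 0.32, SE 0.13, adjusted p = 0.0723 after I/R). The loxP sites flank an inner exon, the gene-level count also takes reads from the exons outside them and from cells without Cre, and the count does not check the deletion. KO below means a library with that label. Proximal tubule markers were abundant in every library and summed to between 14100 and 16000 CPM in Con, 14600 and 16800 in KO, 4210 and 9730 in Con-IR and 2870 and 3460 in KO-IR.

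Sequences just upstream of the genes are shown because p53 binds DNA at a known motif, a half-site of 10 letters that works best as a pair. RefSeq promoter windows of GRCm38.p6, from 250 bases before to 50 bases after a transcription start, were found for 9 of the 10 genes. Trp53inp1 was the gene without a window. The p53 half-site consensus, searched without a mismatch and identical on both strands, was present in 5 of the 9 genes and in 8.36% of all 32851 windows. A pair of adjoining half-sites with at most 1 letter off in total was present in 2 of the 9 genes, Cdkn1a and Ccng1, and in 0.0883% of all windows. In the lines below, capitals mark the pair of half-sites in Cdkn1a (chr17:29090928-29090947, plus strand, 51 bases before the more distal of its 2 starts) and in Ccng1 (chr11:40755462-40755481, minus strand, 195 bases before its start), each with 1 letter off. Both are read 5′ to 3′ toward the start and stop before the first exon. The Cdkn1a window held 2 exact half-sites, 1 in the marked pair and 1 upstream of it that is left in lower case.

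Cdkn1a: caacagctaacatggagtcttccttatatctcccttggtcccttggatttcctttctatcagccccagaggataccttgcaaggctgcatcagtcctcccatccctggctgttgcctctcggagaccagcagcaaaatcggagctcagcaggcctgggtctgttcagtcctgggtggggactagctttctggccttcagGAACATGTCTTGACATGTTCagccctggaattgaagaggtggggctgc
Ccng1: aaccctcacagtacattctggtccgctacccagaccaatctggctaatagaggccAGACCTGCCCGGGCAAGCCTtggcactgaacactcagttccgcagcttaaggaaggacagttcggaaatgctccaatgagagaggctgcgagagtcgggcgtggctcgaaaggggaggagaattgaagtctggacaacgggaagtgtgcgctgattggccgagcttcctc

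The windows of Mdm2, Trp53 and Gadd45a held a half-site on its own, in capitals below, at chr10:117710935-117710944 (minus strand, 186 bases before the start) for Mdm2, at chr11:69580284-69580293 (plus strand, 75 bases before the start) for Trp53 and at chr6:67037438-67037447 (minus strand, 40 bases before the start) for Gadd45a. The Gadd45a half-site lies inside the gene as GENCODE vM21 draws it, since that annotation starts further upstream.

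Mdm2: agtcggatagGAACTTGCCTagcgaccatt
Trp53: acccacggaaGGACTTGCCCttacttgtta
Gadd45a: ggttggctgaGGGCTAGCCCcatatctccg

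The windows of Phlda3, Plk2, Cdkn1b and Cdkn2b and the window at the more proximal Cdkn1a start held no exact half-site. These matches describe letters in a short window. No binding was measured here, and p53 sites further away were not searched.

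Levels were first compared between genes per kilobase of exon, on the scale of CPM per kilobase. In Con kidneys Ccng1 stood highest at 70.1 ± 7.71 (SD, n = 3), followed by Cdkn1b at 14.2 ± 0.201, Gadd45a at 10.9 ± 2.95, Mdm2 at 8.56 ± 0.338 and Trp53inp1 at 8.36 ± 2.30. Trp53 itself was at 5.22 ± 0.661, Plk2 at 2.52 ± 0.620, Cdkn1a at 1.55 ± 0.476, Phlda3 at 1.48 ± 0.973 and Cdkn2b at 0.332 ± 0.151. Gadd45a, Mdm2 and Trp53inp1 lay within 1 SD of one another, as did Cdkn1a and Phlda3. In KO-IR kidneys the order was another one. Ccng1 was at 65.4 ± 1.57 CPM per kilobase and Cdkn1a at 64.7 ± 10.4, so that p21 mRNA had reached the level of the most abundant of the 10 genes. Gadd45a followed at 49.4 ± 0.725 and Trp53inp1 at 41.2 ± 7.85, ahead of Mdm2 at 16.6 ± 2.01, Cdkn1b at 10.8 ± 0.438 and Trp53 at 7.58 ± 0.875. In Con-IR kidneys Cdkn1a was at 7.59 ± 3.66 and stood below Ccng1 at 63.8 ± 10.2, Gadd45a at 31.3 ± 12.5, Cdkn1b at 10.8 ± 1.74, Trp53 at 10.3 ± 2.63 and Mdm2 at 9.22 ± 0.617, the last 3 of which lay within 1 SD of it. In whole tissue, fewer cells of a type and less RNA per cell cannot be told apart.

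**Figure D1:**
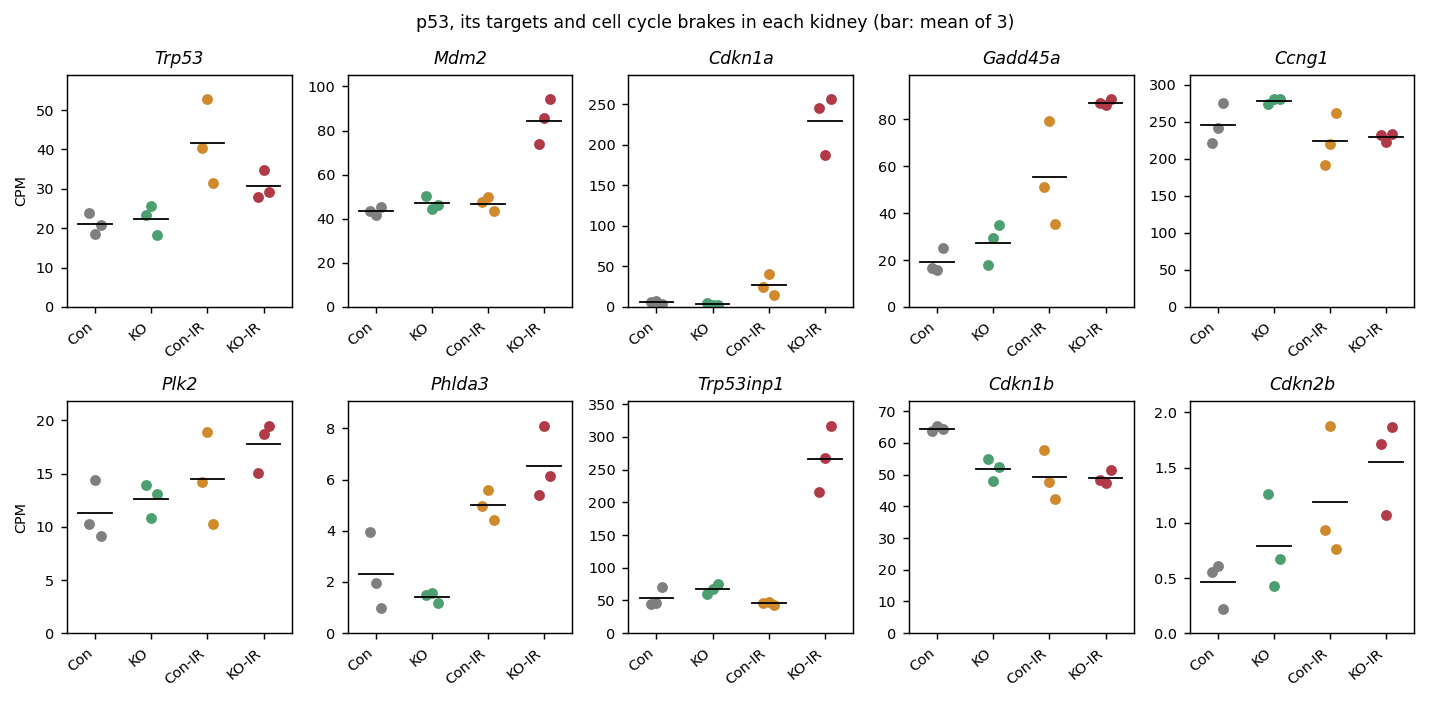
Level of each of the 10 genes in CPM (vertical axes from 0, linear) in the 3 kidneys of each group (points), with the group mean as a bar. Cdkn1a, Trp53inp1 and Mdm2 stand apart in KO-IR, where Cdkn1a lies between 187 and 256 CPM, whereas Trp53 is highest in Con-IR and the mean of Ccng1 lies between 224 and 278 CPM in the 4 groups.

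Trp53 mRNA was higher after I/R in both genotypes, by 1.97-fold in Con and 1.36-fold in KO kidneys, and the test of the difference between these rises did not pass (interaction -0.52, adjusted p = 0.144). Its levels were 23.9, 18.5 and 20.9 CPM in Con, 23.4, 25.6 and 18.3 in KO, 40.4, 52.7 and 31.5 in Con-IR and 28.0, 34.7 and 29.3 in KO-IR. Every injured kidney lay above every uninjured one, and the injured groups overlapped each other. The I/R difference was 0.98 on the log2 scale (SE 0.19, adjusted p = 0.0191) in Con and 0.45 (SE 0.14, adjusted p = 0.0182) in KO, by the quasi-likelihood test of edgeR with Benjamini-Hochberg adjustment over all tested genes, which gives all p-values below. The first call was lost without Con library 1 (adjusted p = 0.0593), Con library 2 (0.0755) or Con-IR library 1 (0.0589). The second was lost without KO library 4 (0.0734) or KO-IR library 3 (0.0747), and with sex in a fit to all 12 libraries (0.0556). KO and KO-IR were both male, and the value in that fit was 0.45. After I/R the KO level minus the Con level was -0.44 (SE 0.18, adjusted p = 0.0796), and this difference passed the threshold without Con-IR library 4 (-0.61, adjusted p = 0.0166). The interaction also passed without that library (-0.69, adjusted p = 0.0452).

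Mdm2, the ubiquitin ligase that p53 induces and that degrades p53, was 1.80-fold higher in KO-IR than in Con-IR. It stood at 43.5, 41.8 and 45.2 CPM in Con, 50.5, 44.5 and 46.1 in KO, 47.4, 49.7 and 43.5 in Con-IR and 73.8, 85.7 and 94.1 in KO-IR. The 3 injured knockout kidneys lay above the other 9, which overlapped one another. The difference between the injured groups was 0.85 (log2, SE 0.12, adjusted p = 0.00112), and that between KO-IR and KO 0.84 (SE 0.11, adjusted p = 7.22e-05). In Con the I/R difference was 0.11 (SE 0.09, adjusted p = 0.409). The I/R difference was larger in KO than in Con by 0.74 (SE 0.14, adjusted p = 0.00254 for the interaction), and by 0.80 (adjusted p = 0.00972) with sex in the fit. Set beside it, the mean of Trp53 was 41.5 ± 10.6 CPM (SD, n = 3) in Con-IR and 30.7 ± 3.54 in KO-IR, and that of Mdm2 46.9 ± 3.14 and 84.6 ± 10.2.

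Cdkn1a had the highest ratio of its highest to its lowest library of the 10 genes. It stood at 6.03, 6.85 and 3.60 CPM in Con, 4.48, 2.48 and 2.15 in KO, 24.8, 40.9 and 15.2 in Con-IR and 246, 187 and 256 in KO-IR. Every injured kidney was above every uninjured one, and every injured knockout kidney was above every injured control. I/R raised Cdkn1a 4.93-fold in Con (log2 2.30, SE 0.38, adjusted p = 0.0131) and 75.7-fold in KO (6.24, SE 0.24, adjusted p = 4.42e-08). After I/R it was 8.49-fold higher in KO than in Con (3.09, SE 0.33, adjusted p = 0.000452), and the I/R difference was 15.4-fold larger in KO than in Con (3.95, SE 0.52, adjusted p = 0.000298). Leaving out single libraries moved the difference between the injured groups between 2.80 and 3.49, and it stayed past the threshold each time. The call in Con was lost without Con library 1 (2.38, adjusted p = 0.0586). With sex in the fit the interaction was 3.34 (adjusted p = 0.00586). An unnamed antisense gene, AC167363.2, overlaps Cdkn1a and had between 0 and 28 counts in a library, where Cdkn1a had at least 35. Whether the counting used strand is not given in the sources used here, so that reads of this pair cannot be told apart.

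Gadd45a, which encodes a stress protein that binds p21 and PCNA, was raised by I/R in both genotypes. It stood at 16.6, 15.8 and 25.2 CPM in Con, 18.0, 29.2 and 34.8 in KO, 51.1, 79.1 and 35.4 in Con-IR and 86.8, 86.0 and 88.5 in KO-IR. Injured and uninjured kidneys of the same genotype did not overlap, and the 3 injured knockout kidneys lay close together above all others. The I/R difference was 1.52 (log2, SE 0.31, adjusted p = 0.0205) in Con and 1.66 (SE 0.19, adjusted p = 3.38e-05) in KO, and the difference between these 2 values was 0.15 (SE 0.40, adjusted p = 0.808). The value in Con was not past the threshold without Con library 1 (adjusted p = 0.0787), Con library 2 (0.0784) or Con-IR library 1 (0.0584), nor with sex in the fit (1.13, adjusted p = 0.0822). Between the injured groups the difference of 0.65 (SE 0.24, adjusted p = 0.0567) missed the threshold. It passed with DESeq2 (adjusted p = 0.0248), with no filter on low counts (0.0269) and without Con-IR library 2 (0.99, adjusted p = 0.0016). The antisense gene E230016M11Rik overlaps Gadd45a and had between 59 and 98 counts, against at least 259 for Gadd45a.

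Ccng1, the p53 target cyclin G1 that acts with a phosphatase on Mdm2, went the other way. It stood at 221, 242 and 275 CPM in Con, 274, 280 and 280 in KO, 191, 220 and 262 in Con-IR and 232, 223 and 233 in KO-IR. The injured knockout kidneys were below the uninjured ones without overlap, whereas the control groups overlapped. The I/R difference was -0.28 (log2, SE 0.08, adjusted p = 0.00965) in KO and -0.13 (SE 0.15, adjusted p = 0.567) in Con. The call in KO was lost in a fit to all 12 libraries (adjusted p = 0.0639). Plk2, a polo-like kinase that p53 induces, stood between 9.14 and 14.4 CPM in Con, 10.8 and 13.9 in KO, 10.3 and 18.9 in Con-IR and 15.1 and 19.5 in KO-IR. It rose in KO by 0.50 (SE 0.15, adjusted p = 0.0147), a call lost without KO library 2 (adjusted p = 0.054) or KO-IR library 4 (0.0525). Fits to all 12 libraries lost it as well, without a sex term (0.50, adjusted p = 0.0661) and with one (0.50, adjusted p = 0.0581). Both of these groups were male. In Con the value was 0.37 (SE 0.25, adjusted p = 0.325).

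Trp53inp1, which encodes a stress-induced nuclear protein that promotes p53 phosphorylation and takes part in autophagy, stood apart in the injured knockout kidneys. It stood at 45.2, 45.8 and 71.3 CPM in Con, 60.3, 67.6 and 75.0 in KO, 46.2, 48.1 and 42.4 in Con-IR and 215, 268 and 317 in KO-IR. The 9 other kidneys did not exceed 75.0 CPM. I/R raised it 3.93-fold in KO (log2 1.97, SE 0.15, adjusted p = 1.85e-06), whereas in Con the value was -0.24 (SE 0.19, adjusted p = 0.376). The difference between the injured groups was 5.83-fold (2.54, SE 0.16, adjusted p = 0.0001), and the interaction was 2.23 (SE 0.26, adjusted p = 0.000155). With sex in the fit the interaction was 2.63 (adjusted p = 0.000164) and the value in Con fell to -0.65 (adjusted p = 0.0422). Without I/R, KO stood above Con by 0.32 (SE 0.18, adjusted p = 0.394), and by 0.57 (adjusted p = 0.0105) without Con library 3. Leaving out that library sets female Con against male KO kidneys, and with sex in the fit the value was -0.077.

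Phlda3, which encodes a small protein that holds back the survival kinase Akt, was low throughout. It stood at 3.97, 1.96 and 0.998 CPM in Con, 1.51, 1.56 and 1.17 in KO, 4.96, 5.59 and 4.43 in Con-IR and 5.39, 8.10 and 6.13 in KO-IR. Every injured kidney lay above every uninjured one, with Con library 1 the nearest. It rose in KO by 2.21 (log2, SE 0.25, adjusted p = 3.66e-05), and the value in Con was 1.11 (SE 0.44, adjusted p = 0.109), 1.77 without Con library 1 and 0.76 without Con library 3. With sex in the fit the value in Con was 2.32 (adjusted p = 0.0143). The interaction of 1.11 (SE 0.54, adjusted p = 0.136) passed the threshold without Con library 3 (1.47, adjusted p = 0.0202), was 0.45 (adjusted p = 0.459) without Con library 1 and was -0.11 with sex in the fit. Without Con library 3 the Con group was all female.

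Neither of the kinase inhibitors outside the core p53 response was called in any of the 5 comparisons. Cdkn1b stood at 63.6, 65.4 and 64.4 CPM in Con, 54.8, 48.1 and 52.5 in KO, 57.8, 47.8 and 42.2 in Con-IR and 48.3, 47.5 and 51.3 in KO-IR. The 3 Con kidneys were the highest of all 12, and the other groups overlapped. Its values were -0.38 (log2, SE 0.13, adjusted p = 0.0784) for I/R in Con, -0.09 (SE 0.09, adjusted p = 0.407) for I/R in KO, -0.32 (SE 0.08, adjusted p = 0.197) for KO against Con and -0.02 (SE 0.13, adjusted p = 0.931) between the injured groups. A fit to all 12 libraries called the first of these (-0.39, adjusted p = 0.0177), and the interaction of 0.31 (SE 0.15, adjusted p = 0.141) was called without Con-IR library 1 (0.44, adjusted p = 0.0282). Cdkn2b was near the limit of detection, between 0.222 and 0.612 CPM in Con, 0.431 and 1.26 in KO, 0.759 and 1.88 in Con-IR and 1.07 and 1.87 in KO-IR. Its I/R values of 1.37 (SE 0.51, adjusted p = 0.0965) in Con and 0.95 (SE 0.44, adjusted p = 0.0817) in KO did not pass, and the latter passed without KO library 1 (1.45, adjusted p = 0.0263).

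The comparison of Con-IR with Con asked what injury did to these genes when ALR was intact. Of the 10 genes 3 were called, all higher (Trp53, Cdkn1a and Gadd45a), where 19.4% of the 15567 genes tested were called, 11.4% higher and 7.97% lower. In 6 of the 10 the libraries of the 2 groups stood apart, against 43.7% of all genes. The median log2 difference was 0.67, against -0.01 over all genes. The calls were 0 without Con library 1, and 1 without Con library 2 or Con-IR library 1. Over all genes the share called also fell in these fits, to 2.39%, 2.56% and 5.28%. With sex in the fit 4 of the 10 and 12.5% of all genes were called, with Trp53, Cdkn1a and Phlda3 higher and Trp53inp1 lower. Tubular injury markers rose here in all 5 tested, and proximal tubule markers fell in 4 of the 10. Leukocyte markers rose in 9 of the 11 tested, and their summed level went from between 49.2 and 49.5 CPM to between 130 and 255. Their part in the result was not tested.

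The comparison of KO-IR with KO asked the same in the knockout. Here 8 of the 10 genes were called, 7 higher and Ccng1 lower, where 65.5% of 15155 genes were called, 32.9% higher and 32.7% lower. Groups stood apart without overlap in 8 of the 10, against 70.8% of all genes. The median was 0.90, against 0.01 over all genes. Leaving out single libraries gave between 7 and 9 calls, where between 58.7% and 65.6% of all genes were called. Being called was thus common over all genes in this comparison. Tubular injury markers rose in all 5 tested, from between 8.78 and 12.4 CPM summed to between 4840 and 6350, and all 10 proximal tubule markers fell (median -2.52). Markers of other nephron segments fell in 6 of the 8, from between 5440 and 6260 CPM summed to between 2260 and 2710. Of 9 leukocyte markers tested 4 rose, among them Cd68 (14.4-fold), and 4 fell, among them Adgre1, a macrophage marker (8.79-fold). The part of these shifts in the result was not tested.

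Without injury, KO was compared with Con to see whether these genes differed in the libraries labelled knockout. None of the 10 was called by edgeR, where 0.0% of 15291 genes were called, and DESeq2 also called 0 of the 10 and 3.0% of all genes. At an unadjusted p under 0.05 stood 2 of the 10, Cdkn1a (-0.86, SE 0.35, adjusted p = 0.275) and Cdkn1b, and 16.8% of all genes. Only Cdkn1b had groups that did not overlap, against 21.0% of all genes. Without Con library 3, 1 of the 10 (Trp53inp1) and 12.4% of all genes were called. Both female libraries are in Con, and without library 3 Con was all female.

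After injury, KO-IR was compared with Con-IR, which asked how the libraries labelled knockout differed under injury. Mdm2, Cdkn1a and Trp53inp1 were called higher, 3 of the 10, where 46.9% of 15281 genes were called, 22.5% higher and 24.4% lower. Groups stood apart in 4 of the 10, these 3 and Gadd45a, against 58.7% of all genes. Being called was thus no more frequent among the 10 than over all genes. The median of the 10 was 0.37, against 0.00 over all genes. Leaving out single libraries gave 3 or 4 calls. Tubular injury markers moved with these 3 genes. Their sum lay between 574 and 2690 CPM in Con-IR and between 4840 and 6350 in KO-IR, and of the 5 tested Krt20 (32.4-fold), Lcn2 (5.4-fold) and Havcr1 (2.89-fold) were called higher and Vcam1 lower. Proximal tubule markers were lower in 5 of the 10 and markers of other nephron segments in 4 of the 8. Erythroid markers were lower in 4 of the 5, with a sum between 82.1 and 215 CPM in Con-IR and between 41.9 and 49.5 in KO-IR, and the summed leukocyte markers lay between 80.1 and 106 CPM in KO-IR, below the range in Con-IR. Of 9 leukocyte markers tested 5 were lower, and 3 were higher, namely Cd68 (1.69-fold, SE 0.18 on the log2 scale, adjusted p = 0.0117), a macrophage marker, and the neutrophil genes S100a8 (2.83-fold, SE 0.50, adjusted p = 0.0394) and S100a9 (3.18-fold, SE 0.42, adjusted p = 0.013). Ptprc (CD45), which all leukocytes carry, had a mean of 30.4 CPM in Con-IR and 6.13 in KO-IR. The part of these markers in the result was not tested.

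The interaction tested whether the I/R difference itself differed between the genotypes, on all 12 libraries. The same 3 genes were called, all with a larger I/R difference in KO, where 30.6% of 16168 genes were called, 14.3% in this direction and 16.4% in the other. Between 3 and 4 genes were called without single libraries and 3 with sex in the fit. Over all genes the share called was between 21.7% and 33.2% without single libraries and 20.0% with sex in the fit. For the other 7 genes the values ran from -0.52 for Trp53 (SE 0.26, adjusted p = 0.144) to 1.11 for Phlda3. None of these 7 passed, which does not show that the genotypes responded alike.

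**Figure D2:**
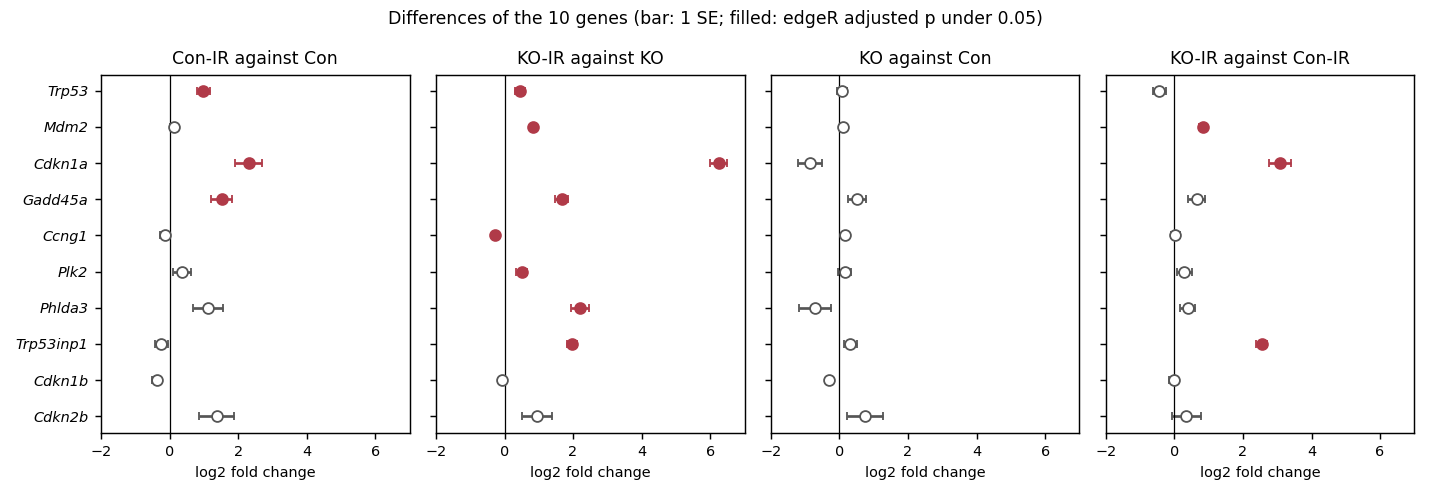
Log2 fold change of the 10 genes (horizontal axis, points, with bars of 1 SE) in the 4 comparisons, each of 3 against 3 kidneys. Filled red points have an adjusted p under 0.05, 3 in Con-IR against Con, 8 in KO-IR against KO, 0 in KO against Con and 3 in KO-IR against Con-IR.

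A wider list of 32 further p53 targets was read beside the 10 genes. In Con-IR against Con 9 were called higher and 2 lower (median 0.22), where 11.4% and 7.97% of all genes were. With sex in the fit 4 were higher and 1 lower, and 12.5% of all genes were called. None was called without Con library 1 or without Con library 2, 2 were higher without Con-IR library 1 or 2, and 3 without Con library 3. Over all genes the share called in these fits was 2.39%, 2.56%, 5.28%, 10.2% and 14.0%, in the same order. In KO-IR against KO, 31 were tested, of which 16 were higher and 4 lower (median 0.35), shares to be read against the 32.9% and 32.7% of all genes. In KO-IR against Con-IR 12 were higher and 7 lower (median 0.21), against 22.5% and 24.4% of all genes, and leaving out single libraries gave between 8 (without Con-IR library 1 or KO-IR library 4) and 12 higher and between 3 and 5 lower. Gdf15, a secreted stress cytokine, went from 3.79, 4.90 and 4.29 CPM in KO to 84.1, 146 and 137 in KO-IR, a rise of 4.81 (log2, SE 0.23, adjusted p = 1.17e-07). In Con-IR it stood at 24.5, 71.9 and 13.1 CPM, all below KO-IR, and the difference of 1.75 (SE 0.54, adjusted p = 0.0298) was lost without Con-IR library 1 (adjusted p = 0.102) or KO-IR library 3 (0.0867) or 4 (0.087), and was 2.67 without Con-IR library 2. Epha2, an ephrin receptor, rose by 3.33 (SE 0.14, adjusted p = 7.28e-08) in KO and was higher by 2.02 (SE 0.40, adjusted p = 0.00482) in KO-IR than in Con-IR, and by 2.65 without Con-IR library 2. Btg2, which slows proliferation, rose by 3.22 (SE 0.25, adjusted p = 2.93e-06) in KO and was higher by 1.66 (SE 0.42, adjusted p = 0.0141) in KO-IR, which was lost without Con-IR library 1 (0.0568) or KO-IR library 4 (0.0542) and was 2.29 without Con-IR library 2.

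Other p53 targets fell in the same kidneys. Rrm2b, the ribonucleotide reductase subunit that p53 induces for DNA repair, stood at 54.6, 65.4 and 64.7 CPM in KO and at 21.2, 19.6 and 19.6 in KO-IR. It fell by 1.62 on the log2 scale (SE 0.10, adjusted p = 6.13e-07), and was also lower than in Con-IR (-0.64, SE 0.15, adjusted p = 0.0108). Ak1, an adenylate kinase, went from 16.8, 12.9 and 15.0 CPM to 5.39, 4.14 and 2.06 (-1.97, SE 0.28, adjusted p = 0.000152) and was lower than in Con-IR by 1.78 (-1.78, SE 0.35, adjusted p = 0.00452). Steap3, an endosomal iron reductase, fell in both genotypes, by 1.27 in Con (-1.27, SE 0.26, adjusted p = 0.0223) and by 1.34 in KO (-1.34, SE 0.22, adjusted p = 0.000439). The former was lost without Con library 1 (adjusted p = 0.0741) or 2 (0.078), without Con-IR library 1 (0.0703) or 2 (0.0546), and with sex in the fit (0.137). Fdxr, the mitochondrial ferredoxin reductase, was lower in KO-IR than in Con-IR (-0.94, SE 0.18, adjusted p = 0.00381). Dram1, which takes part in autophagy, was lower as well (-0.86, SE 0.30, adjusted p = 0.0467), a call lost without any one of Con-IR libraries 1 and 2 and KO-IR libraries 2 and 3, with adjusted p between 0.0725 and 0.136. The known targets of p53 thus split, with some rising and some falling in the same 3 kidneys.

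**Figure D3:**
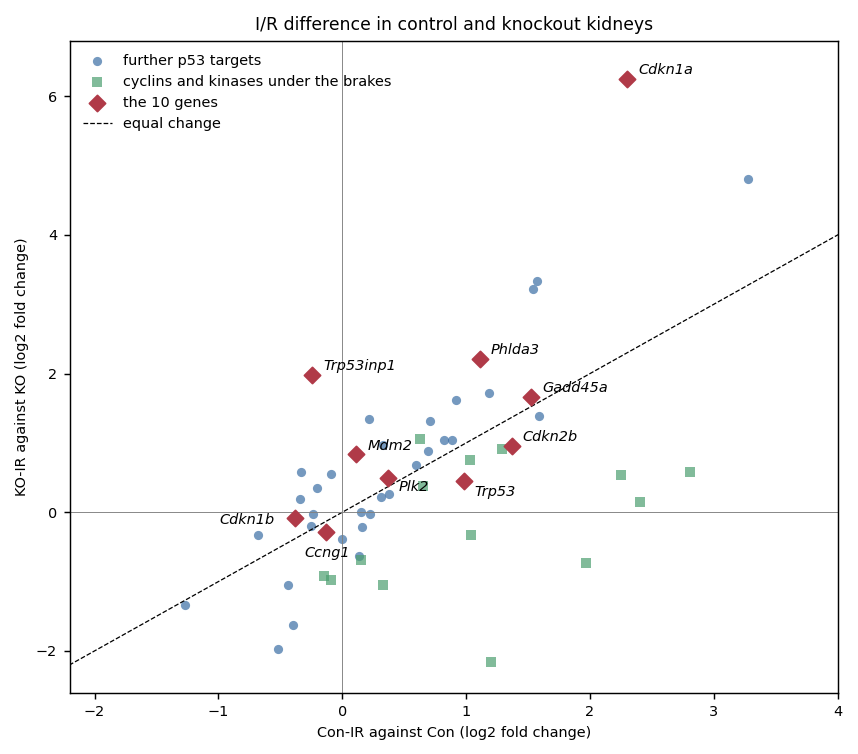
Log2 fold change after I/R in Con (horizontal) and in KO (vertical) for the 10 genes (red diamonds, named), 31 further p53 targets (blue circles) and 14 cyclins, kinases and proliferation genes (green squares), 6 libraries to each axis and none shared. Cdkn1a (2.30 and 6.24) and Trp53inp1 (-0.24 and 1.97) lie far above the dashed line of equal change, and most green squares lie below it.

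The 14 cyclins, kinases and proliferation genes of a further list were mostly higher after I/R in Con and mostly lower in KO-IR than in Con-IR. The part of the brakes in this was not tested. In Con-IR against Con 10 of them were higher and none lower (median 1.03), where 11.4% and 7.97% of all genes were. In KO-IR against Con-IR none was higher and 12 were lower (median -1.40), where 24.4% of all genes were lower. Leaving out single libraries gave between 10 and 12 lower calls in the latter, with Cdk6 higher without Con-IR library 2, and 6 higher calls in the former without Con library 1 or 2, as with sex in the fit. In KO-IR against KO 4 were higher and 4 lower, where 32.9% and 32.7% of all genes were. Mki67, the proliferation antigen, stood at 17.7, 15.0 and 17.2 CPM in Con, 18.6, 10.8 and 7.79 in KO, 41.7, 38.7 and 33.9 in Con-IR and 3.85, 2.18 and 2.51 in KO-IR. It was above every uninjured kidney in Con-IR and below every other kidney in KO-IR. It rose in Con by 1.20 (log2, SE 0.12, adjusted p = 0.00337) and fell in KO by 2.16 (-2.16, SE 0.34, adjusted p = 0.00031), and the interaction was -3.35 (SE 0.39, adjusted p = 0.000159). With sex in the fit the value in Con was 1.15 (adjusted p = 0.0731). Ccna2, the S phase cyclin A2, stood at 19.2, 18.5 and 12.2 CPM in Con-IR and at 5.22, 0.579 and 1.35 in KO-IR (-2.93, SE 0.63, adjusted p = 0.00718), a difference of -4.15 without KO-IR library 2. Ccnd1, the cyclin D1 of the G1 phase, stood at 297, 261 and 353 CPM in Con-IR and at 112, 132 and 146 in KO-IR (-1.23, SE 0.16, adjusted p = 0.000844). Ccnd3 (cyclin D3) fell in KO after I/R (-0.92, SE 0.11, adjusted p = 5.12e-05).

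Some genes of this list rose after I/R in both genotypes. Cdk2, the kinase that p21 blocks, rose after I/R in KO by 1.06 (log2, SE 0.11, adjusted p = 1.57e-05) and in Con by 0.63 (SE 0.12, adjusted p = 0.0189). Pcna, the replication clamp, rose in KO by 0.91 (SE 0.08, adjusted p = 5.6e-06) and in Con by 1.29 (SE 0.14, adjusted p = 0.004), and was lower in KO-IR than in Con-IR (-0.52, SE 0.12, adjusted p = 0.00954). Cdk6, a partner of the D cyclins, rose in KO by 0.75 (SE 0.14, adjusted p = 0.00109) and in Con by 1.03 (SE 0.22, adjusted p = 0.0241). In Con the calls of Cdk2 (adjusted p = 0.0734 and 0.0646) and Cdk6 (0.0797 and 0.0885) were lost without Con library 1 or 2, and that of Cdk6 also without Con-IR library 1 (0.0617) and with sex in the fit (0.0795).

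**Figure D4:**
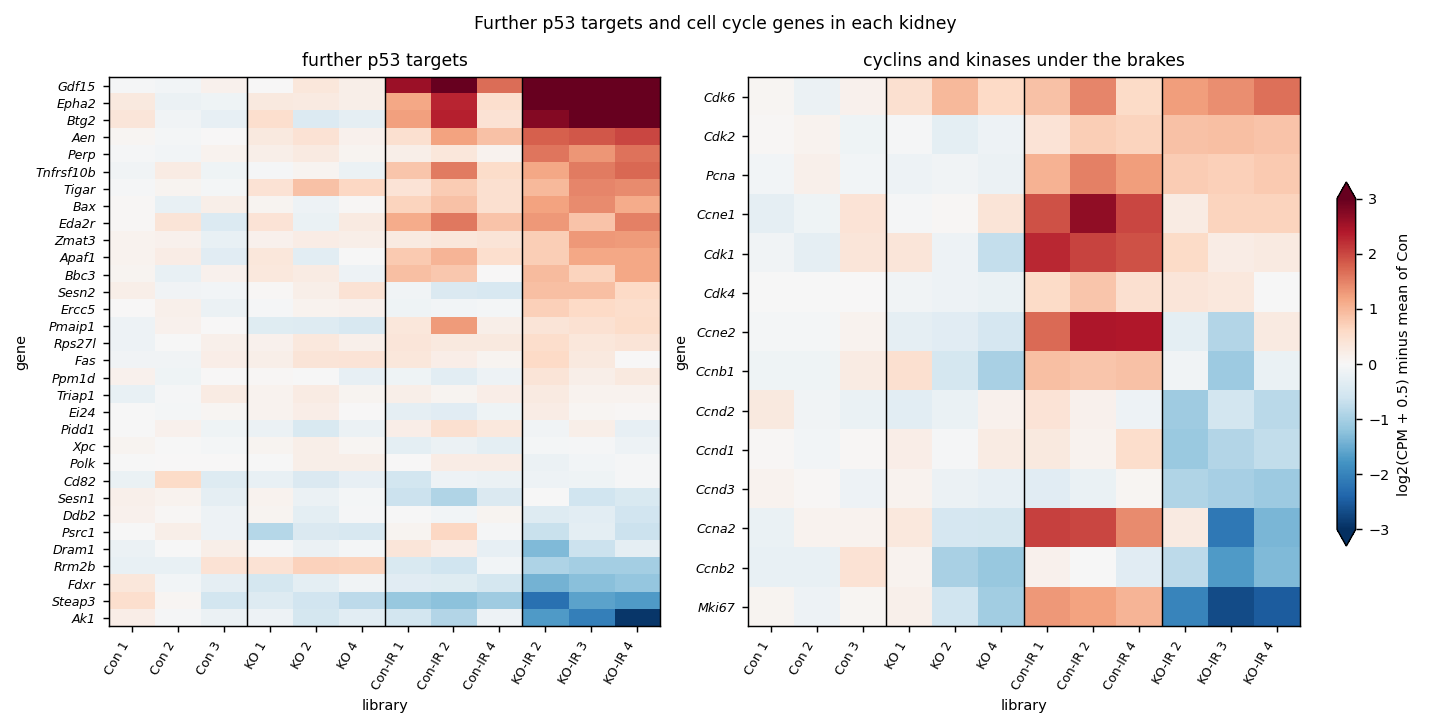
Level of the 32 further p53 targets (left) and 14 cyclins, kinases and proliferation genes (right) in each of the 12 libraries, as log2(CPM + 0.5) minus the Con mean (colour, red higher and blue lower, cut at -3 and 3), ordered by the KO-IR mean. Gdf15, Epha2 and Btg2 are reddest in KO-IR, where Mki67 is bluest, while Con-IR is red for most of the right panel.

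Of 18 genes that act on p53, 4 were called higher and 6 lower in KO-IR against Con-IR, where 22.5% and 24.4% of all genes were. With library totals in place of the TMM scaling 1 was higher and 8 were lower, and without KO-IR library 4 these counts were 2 and 5. Over all genes 46.2% were called in the former fit (median -0.21) and 31.0% in the latter, in either direction. In Con-IR against Con, Chek1 alone was called, and it was higher, where 11.4% of all genes were. Chek2, the checkpoint kinase that phosphorylates p53, stood at 7.77, 11.9 and 13.6 CPM in Con-IR and at 1.80, 1.91 and 1.42 in KO-IR (-2.69, SE 0.27, adjusted p = 0.000366), below all other kidneys. Prkdc, the catalytic subunit of DNA-dependent protein kinase, was lower too (-1.28, SE 0.20, adjusted p = 0.00194), as was Trp53bp1, which marks DNA breaks (-0.84, SE 0.10, adjusted p = 0.000637). Atm, the kinase that signals such breaks, fell in KO after I/R (-0.83, SE 0.13, adjusted p = 0.000243). Rchy1, a further ubiquitin ligase of p53, was higher in KO-IR than in Con-IR (0.77, SE 0.10, adjusted p = 0.000874). Kat5, which acetylates p53, was higher by 0.42 (SE 0.11, adjusted p = 0.016), but not past the threshold with library totals (0.22, adjusted p = 0.163) or without KO-IR library 4 (0.0619). Crebbp, a coactivator of p53, was higher by 0.44 (SE 0.15, adjusted p = 0.0431) and lost the call without Con-IR library 1 (0.134) or 4 (0.0868) or KO-IR library 3 (0.135) or 4 (0.149), with library totals (0.23, adjusted p = 0.242) and with a filter of 10 counts in every library (0.0521). Daxx, which binds Mdm2, rose in KO after I/R (0.60, SE 0.11, adjusted p = 0.000848).

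Of 19 other cell cycle brakes 18 were tested. In KO-IR against KO 5 were higher and 8 lower, where 32.9% and 32.7% of all genes were. In KO-IR against Con-IR 4 were higher and 6 lower, where 22.5% and 24.4% of all genes were. Btg1, which slows proliferation, stood at 86.5, 93.1 and 52.6 CPM in Con-IR and at 170, 185 and 232 in KO-IR (log2 1.33, SE 0.22, adjusted p = 0.0023). E2f4, a repressor that works with the pocket proteins, was higher by 0.88 (SE 0.16, adjusted p = 0.00322), and Foxo3, a factor that holds cells at rest, by 0.62 (SE 0.14, adjusted p = 0.00858). Lin54, the DNA-binding part of the complex that E2f4 joins, rose in KO after I/R (0.66, SE 0.12, adjusted p = 0.000804). Rbl1, the pocket protein p107, stood at 22.7, 29.5 and 30.7 CPM in Con-IR and at 6.76, 7.52 and 6.58 in KO-IR (-1.99, SE 0.16, adjusted p = 0.000199). Cdkn2c, the inhibitor p18, was lower by 1.34 (-1.34, SE 0.15, adjusted p = 0.000601), and Cdkn1c, the inhibitor p57, by 0.86 (-0.86, SE 0.18, adjusted p = 0.00612).

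Among 10 tested relatives of the 10 genes, Plk3 and Ccng2 were higher in KO-IR than in Con-IR and 2 were lower, where 22.5% and 24.4% of all genes were. Plk3, a stress-responsive polo-like kinase, stood at 14.8, 14.3 and 14.2 CPM in Con-IR and at 46.5, 63.0 and 46.7 in KO-IR (log2 1.85, SE 0.14, adjusted p = 0.000199). Its relative Plk2 differed by 0.30 (SE 0.22, adjusted p = 0.291). Ccng2, cyclin G2, was higher by 1.05 (SE 0.17, adjusted p = 0.00199), where its relative Ccng1 differed by 0.03 (SE 0.13, adjusted p = 0.874). Plk4, which duplicates centrioles, was lower (-0.64, SE 0.19, adjusted p = 0.0248), a call lost without Con-IR library 2 (0.0645) or KO-IR library 2 (0.0719) or 3 (0.0843). Phlda1, a relative of Phlda3, rose in KO after I/R (1.82, SE 0.20, adjusted p = 3.16e-05), and Trp53inp2, a relative of Trp53inp1 that also takes part in autophagy, fell (-1.11, SE 0.14, adjusted p = 8.23e-05).

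Across the 12 libraries Cdkn1a ran most nearly with Phlda3 and Mdm2 among the 10 genes, with a Pearson correlation of log2(CPM + 0.5) of 0.87 for each, followed by Gadd45a at 0.85, and least with Ccng1 at -0.59. Mdm2 and Trp53inp1 had a correlation of 0.96. Trp53 had 0.57 with Cdkn1a and 0.07 with Trp53inp1. The 12 points share the 4 groups, and no p is given. Over the 10991 genes that averaged 100 counts or more, the 5 whose pattern was most like that of Cdkn1a were Krt20 (r = 0.9931), Lox (0.992), Snhg5 (0.9912), Tubb2a (0.9906) and Tmem43 (0.9901). Krt20, a keratin and one of the tubular injury markers, went from a mean of 0.623 CPM in Con to 32.4 in Con-IR and 1050 in KO-IR. Tubb2a, a tubulin, went from 17.5 CPM to 62.5 and 257.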

How the data were processed

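RNA of mouse kidney in 12 libraries was sequenced on an Illumina instrument. The authors deposited 1 table of read counts per gene, whole numbers that they had neither normalized nor filtered. The submitters' processing notes name HISAT2 2.0.4 and the mm10 build. The count program, annotation and strandedness are not given in the sources used here. Groups follow the sample labels. Con library 3 was placed by the name of its count column, as the titles of the control samples skip that number. The labels name no separate mice, so p-values measure the spread between these samples.

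Symbols, exon lengths and coordinates came from GENCODE vM21. In R 4.3.3, low genes were removed with filterByExpr, libraries were scaled by TMM (which allows for library size and composition), and quasi-likelihood F tests of edgeR 4.0.16 were fitted to the 6 libraries of a comparison, or to all 12 for the interaction. P-values were adjusted over all tested genes by the Benjamini-Hochberg method, and called means below 0.05. The SE is the log2 fold change over the root of F. CPM values use TMM factors of all 12 libraries. The fits were tested on counts simulated from these libraries with known changes.

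The 10 genes were named in every comparison. From each list of related genes, up to 3 called rises and 3 called falls were named by size in KO-IR against KO and in KO-IR against Con-IR, where the mean over libraries reached 100 counts, besides the 5 genes most like Cdkn1a. The genes, lists and alternatives were chosen with earlier results of these data known. Alternatives were DESeq2 1.42.0, its size factors, library totals, no filter, a filter of 10 counts per library, 1 fit to 12 libraries, the replicate number as a block, sex, and leaving out each library.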

Additional observations from a re-analysis of the deposited data

Results flagged for a closer look

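The I/R difference was larger in KO than in Con, by the edgeR interaction test on 12 libraries (adjusted p under 0.05), for Mdm2 (0.74 on the log2 scale), Cdkn1a (3.95) and Trp53inp1 (2.23). Of the further p53 targets that were named, the rise was larger in KO for Epha2 (1.77) and Btg2 (1.68), and the signed value was lower in KO for Ak1 (-1.43) and Rrm2b (-1.21), which fell in KO. The Epha2 and Btg2 values did not pass with sex in the fit (adjusted p = 0.101 and 0.175). Of the 12 fits that left out a library, Epha2 lost the call in 1, without Con library 1 (0.0549), and Btg2 in 8 (adjusted p from 0.0558 to 0.0958), as it did with library totals (0.0612). Without Con-IR library 2 they were 2.41 and 2.32.

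Of the p53 regulators, Rchy1 (0.79), Kat5 (0.60) and Crebbp (0.58) had a higher signed value in KO, and Chek2 (-2.75), Prkdc (-1.50), Trp53bp1 (-0.66) and Atm (-0.54) a lower one. Crebbp and Atm lost the call with sex in the fit (adjusted p = 0.238 and 0.0831). Crebbp also lost it in 9 of the 12 fits that left out a library (adjusted p from 0.0544 to 0.0983), with library totals (0.0997) and with no filter on low counts (0.0517), and Atm in 6 of the 12 (0.0503 to 0.0684). Of the other brakes, Btg1 (1.41), E2f4 (1.03) and Foxo3 (1.01) had a higher value, and Rbl1 (-1.65) and Cdkn2c (-1.58) a lower one, and Foxo3 lost the call with sex in the fit (adjusted p = 0.0534). Among the cyclins and proliferation genes, Mki67 (-3.35), Ccna2 (-2.71), Ccnd1 (-1.37) and Ccnd3 (-0.76) had a lower value, and Ccna2 lost the call with sex in the fit (adjusted p = 0.0827) and without KO library 1 (0.0555) or KO-IR library 4 (0.0543), and was -3.95 without KO-IR library 2. Among the relatives of the 10 genes, Plk3 (1.81) and Ccng2 (1.22) had a higher value. Groups of 3 are too small for a test of single outlying libraries.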

How the results depend on the processing

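The number of the 10 genes called kept within 1.5 times its value under every alternative that was run, with these exceptions. In Con-IR against Con it was 5 in a fit to all 12 libraries. That fit also called more of all genes, 30.5% against 19.4% in the fit to 6 libraries. The number of the 10 genes called was between 0 and 3 when single libraries were left out. It was 0 without Con library 1, where 2.39% of all genes were called. In KO against Con it was 1 with the replicate number as a block, and between 0 and 1 without single libraries (1 without Con library 3, the only male one in Con, where the calls over all genes went from 0 to 1930). Libraries with the same number did not deviate together (median residual correlation -0.0217 over 12 pairs, 1 of them over 0.1). With 3 libraries to a group this cannot settle whether equal numbers belong together, and the labels do not say. With the replicate number as a block, Trp53 (adjusted p = 0.0801) and Ccng1 (0.0644) lost the call in KO-IR against KO and Mdm2 (0.84, adjusted p = 0.0589) in KO-IR against Con-IR, while Cdkn2b (1.69, adjusted p = 0.0265) gained one in the former and Trp53inp1 (0.48, adjusted p = 0.0305) in KO against Con. Of the other named genes, 19 of 30 lost the call with the block in KO-IR against Con-IR, 9 of 22 in the interaction and none of 31 in KO-IR against KO. Numbers match only in part between groups, so the block in a fit to 6 libraries leaves little to estimate the spread. Over all genes the block moved the calls from 7169 to 1683 in KO-IR against Con-IR, from 0 to 1378 in KO against Con (458 with DESeq2) and from 4953 to 3215 in the interaction. Sex moved them from 4953 to 3233 in the interaction. In Con-IR against Con the calls were 3019 in the fit to 6 libraries, 4938 in a fit to all 12 and 2029 in the latter with sex.

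Library totals in place of TMM shifted the median of all genes to 0.1058 in Con-IR against Con, -0.1352 in KO against Con, -0.2102 in KO-IR against Con-IR and -0.1039 in the interaction. Under it Trp53 was called lower in KO-IR than in Con-IR (-0.65, adjusted p = 0.0271).

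Values that turned sign had not been called, and are given with the range over leaving out single libraries where that turned it. In Con-IR against Con, Trp53inp1 was 0.062 with the block and from -0.35 to 0.020 without single libraries. In KO against Con, Trp53 was -0.040 with library totals and from -0.014 to 0.21 without single libraries, Mdm2 -0.0096 with library totals, and Phlda3 0.50 and Trp53inp1 -0.077 with sex. In KO-IR against Con-IR, Ccng1 was -0.18 with library totals, -0.043 with the block and from -0.084 to 0.15 without single libraries, and Cdkn1b 0.15 with the block and from -0.12 to 0.11. In the interaction, Gadd45a was -0.13 with the block and from -0.10 to 0.48 without single libraries, Ccng1 0.022, Plk2 -0.16 and Phlda3 -0.11 with sex, Plk2 from -0.072 to 0.36 without single libraries, Cdkn2b 0.18 with the block and from -0.70 to 0.11, Steap3 0.079 with the block and from -0.35 to 0.18, and Cdk6 from -0.45 to 0.011. The cause was not tested. With 3 kidneys to a group, the number of libraries limits the precision, and for Cdkn2b the depth does as well.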
